A study of Mus musculus with 4 samples.

Results

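Cluster 8 is 1 of 23 clusters of nuclei from mouse kidney cortex. By its place in the order of cluster names it is EC-1, the first of a pair of clusters called endothelial. It was taken as the 4 deposited columns that carry the number 8, 1 for each mouse, out of 92 columns in all. The columns hold numbers without names, and no marker rows for EC-1 were held here, so the name rests on the order and on the markers described here. Nuclei came from male mice on a mixed background, 1 mouse for each of 4 conditions. Control mice carried TRE-hKLF6 alone, a human *KLF6* transgene that is silent without a transactivator. h*KLF6*OE mice carried CAG-rtTA,TRE-hKLF6, where a CMV-chicken beta-actin promoter drives the transactivator in all tissues, so overexpression was not limited to the endothelium or the tubule. All of these mice, controls included, were fed doxycycline at 200 mg/kg of diet for 1 week. In each genotype 1 mouse then received a single injection of aristolochic acid I (AAI), a plant toxin that damages DNA, at 2 mg/kg and was killed 24 hours later, and the other is labelled as having had no treatment, although the methods name a DMSO vehicle.

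Endothelial cells line the vessels of the kidney, from the fenestrated capillaries of the glomerulus to the peritubular capillaries that lie against the tubules. They are known by receptors for VEGF and the angiopoietins, by junction proteins such as Pecam1 and VE-cadherin, and by ETS-family transcription factors. Proximal tubule cells, which take up most of the filtered sodium, glucose, phosphate and protein, are known instead by brush border transporters and endocytic receptors, and the thick ascending limb by its sodium-potassium-chloride cotransporter.

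Each value averages the normalized expression of a gene over all nuclei that a mouse gave to a cluster, on a linear scale on which all genes of a column sum to 10000. Neither nuclei nor counts per column are in the table, so no interval for counting error could be given, and a mean cannot tell few nuclei with a high level from many with a low one. The share of genes at exactly 0 in cluster 8 was 20.6% in control mice and 18.1% with AAI, and 21.2% in h*KLF6*OE and, with AAI, 26.2% in h*KLF6*OE. In cluster 10, named EC-2, that share lay between 29.9% and 34.5%. Each condition is 1 mouse, so its spread between animals is unknown; no test between conditions was made, and the clusters were defined on the expression values that are compared, so every difference is a description of these 4 mice. Differences are in log2(value + 1), a scale that understates changes of low genes. A gene was tested when the larger side reached 0.5, and it was called higher or lower when every mouse or contrast differed by at least 0.5 in the same direction. A gene that reaches 0.5 on only 1 side can be called only toward that side, so the counts given for a list describe the members that passed the minimum and not the list as a whole. Within each gene, the values of the control mouse without and with AAI come first, followed by those of the h*KLF6*OE mouse without and with AAI.

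Cluster 8 held endothelial transcripts, but at a fraction of their level in EC-2. Beside them it held proximal tubule transcripts, at a larger fraction of the mean of the 5 proximal tubule clusters. It also held thick ascending limb transcripts at a fraction of their home cluster comparable to that of the endothelial ones. The name EC-1 was therefore not borne out by the markers alone, and the group is called cluster 8 here. *Flt1*, which encodes VEGF receptor 1 and lies on chromosome 5 (147561604 to 147726011, minus strand, GRCm38), was 3.70, 4.07, 3.78 and 3.66 in cluster 8. In EC-2 it was 22.2, 23.3, 23 and 22.4, and in the mean of the 5 proximal tubule clusters (numbers 0 to 4) it was 0.122, 0.128, 0.131 and 0.108. In every mouse cluster 8 thus lay well below EC-2 and well above the proximal tubule, and the 3 sets of 4 values did not overlap. Cluster 8 had rank 3 of 23 clusters for *Flt1* in all 4 mice, behind EC-2 and the macrophage cluster (mean of 4 mice 6.68) and ahead of the mesangial cluster MC (2.95).

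*Slc5a12*, the sodium-coupled lactate transporter of the early proximal tubule on chromosome 2 (110597298 to 110647779, plus strand), was 13.5, 24.1, 14.2 and 17.4 in cluster 8. It was 3.53, 6.61, 4.80 and 6.21 in EC-2 and 19.5, 28.3, 21.5 and 23.8 in the mean of the proximal tubule clusters. Cluster 8 was above EC-2 and below the proximal tubule mean in each mouse, and its mean of 17.3 had rank 3, after PT-S1-S2-1 (55.2) and PT-S1-S2-2 (47.1) and ahead of DCT_CNT (14.4). *Slc12a1*, the cotransporter of the thick ascending limb on chromosome 2 (125152505 to 125230002, plus strand), was 29.9, 30.0, 38.1 and 27.7 in cluster 8. It was 5.01, 3.25, 4.45 and 5.32 in EC-2 and between 1.39 and 1.67 in the proximal tubule mean. Cluster 8 had rank 4 for *Slc12a1* in all 4 mice, behind the 3 ascending limb clusters (means of 206, 156 and 125) and ahead of MC (6.94), so it stood apart from both of the cell types that its other markers name.

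**Figure D1:**
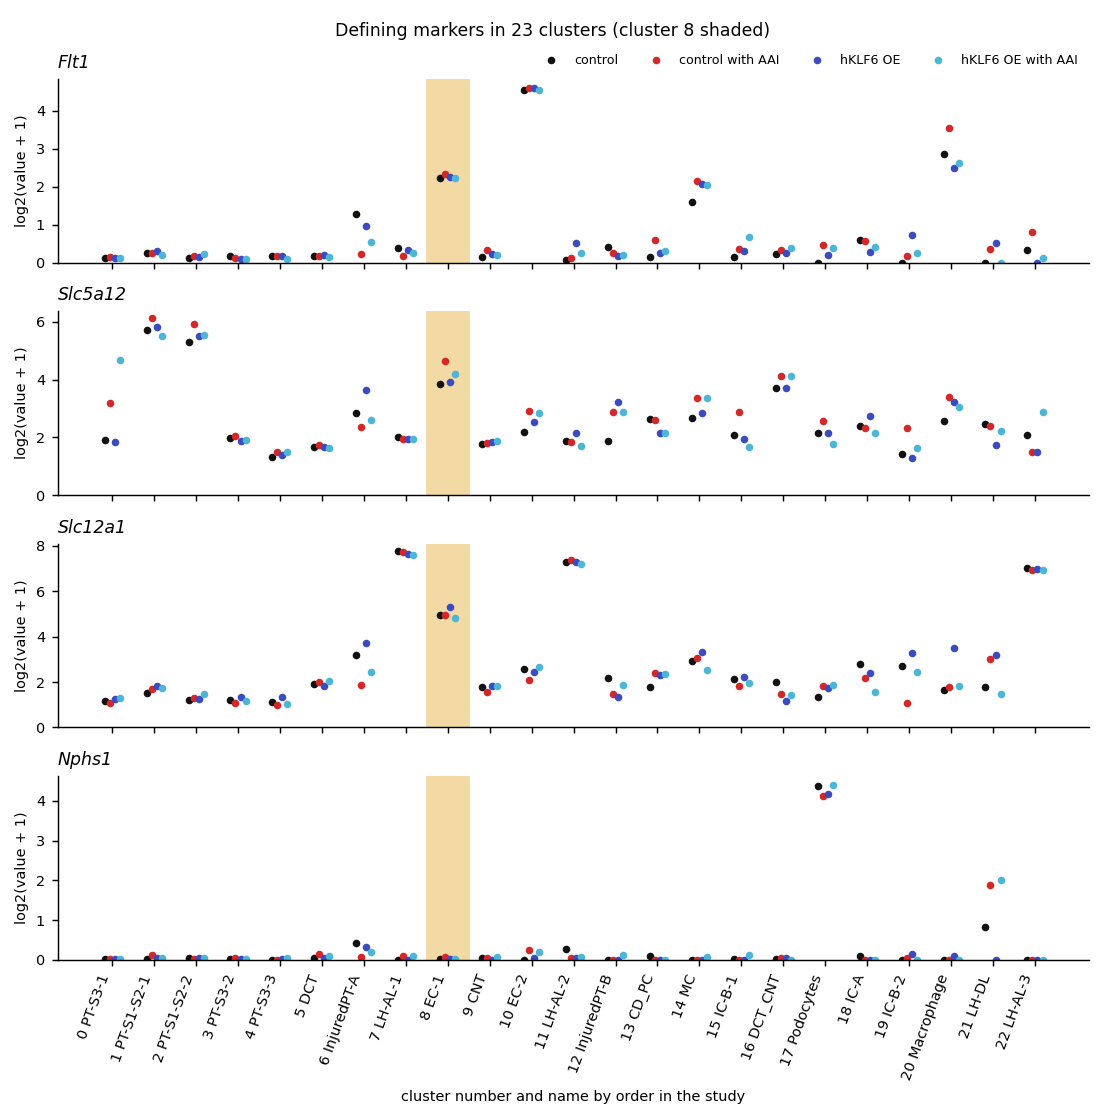
Expression of *Flt1*, *Slc5a12*, *Slc12a1* and the podocyte gene *Nphs1* as log2(value + 1) on the y axis in each of the 23 clusters on the x axis, with 1 point for each of the 4 mice and cluster 8 shaded. Cluster 8 has rank 3 for *Flt1* and rank 4 for *Slc12a1* in every mouse, while its *Nphs1* lies near 0 (mean 0.022, against 18.4 in podocytes).

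Other defining endothelial genes were also lower in cluster 8 than in EC-2. *Meis2*, a homeobox factor, was 9.23, 9.57, 9.72 and 11.5 in cluster 8 against 53.5, 49.8, 52.97 and 59.8 in EC-2. *Emcn*, the endothelial sialomucin endomucin, was 2.45, 3.24, 2.55 and 2.44 against 19.8, 20.1, 18.7 and 16.2. *Pecam1*, a junction protein of all endothelium, was 1.13, 1.73, 2.74 and 2.01 against 5.36, 6.81, 6.09 and 5.07. For all 3 genes the highest mouse of cluster 8 was below the lowest mouse of EC-2. Low expressors were also present: the mean of *Cdh5*, VE-cadherin, was 0.337 against 1.23, and that of *Kdr*, VEGF receptor 2, was 0.565 against 3.22. The place beside MC differed by gene. By mean, MC was above cluster 8 for *Meis2* (13.8 against 10.0) and *Cdh5* (0.364 against 0.337) and level for *Emcn* (2.68 against 2.67). It was below cluster 8 for *Pecam1* (0.856 against 1.90) and *Kdr* (0.470 against 0.565).

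To set genes of different level on 1 scale, each marker in cluster 8 was expressed as a percent of its level in the cluster that is its home, for members with a home level of at least 1 in every mouse. The 18 of 36 pan-endothelial members that reached this level had medians of 16.5% to 20.3% of EC-2 over the 4 mice, and by their mean over mice the members ranged from 14.3% to 32.8%. Of 21 other clusters 1 had a higher percentage, the macrophage cluster at 29.9%, MC followed at 16.1%, and the median cluster stood at 1.26%. The 5 of 23 endothelial subtype members stood at 30.6% to 37.2% of EC-2, where MC was higher at 55.1% and the median cluster stood at 19.7%. These members ranged from 21.6% to 238%, the latter for *Mapt*. The 24 of 28 proximal tubule S1 and S2 members stood at 74.7% to 81.7% of the proximal tubule mean, with members from 53.7% to 98.9%. None of 15 other clusters outside the proximal tubule was higher, and the nearest were DCT_CNT at 64.6% and MC at 49.2%, with EC-2 at 37.0% and a median of 23.6%. The 10 of 15 S3 members stood at 53.2% to 72.1%, where DCT_CNT (64.7%) was level with cluster 8 (64.2%). The proximal tubule mean spans 5 clusters of different segments and EC-2 is 1 cluster, so these percents are not like measures. By mean, *Slc5a2* was 2.15 in cluster 8 and 7.31 in PT-S1-S2-1, and *Cyp7b1* was 5.51 and, in PT-S3-2, 41.2. Genes of all segments lay closer to their highest cluster, with *Lrp2* at 12.8 against 20.4 in PT-S3-1 and *Hnf4a* at 2.11 against 2.82 in PT-S1-S2-1.

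The 10 of 12 thick ascending limb members stood at 18.2% to 28.0% of LH-AL-1, higher than in each of 19 clusters outside the ascending limb, of which DCT was next at 18.6%, EC-2 was at 4.67% and the median was 4.76%. Other cell types, except the descending limb, were at lower fractions of their home. Intercalated cell members stood at 0.518% to 1.13%, podocyte members at 0.559% to 1.45%, principal cell members at 2.18% to 3.24% and macrophage and leukocyte members at 2.88% to 4.13%. Mesangial, pericyte and fibroblast members stood at 3.41% to 12.1% and distal convoluted and connecting tubule members at 3.90% to 10.3%. The 2 descending limb members, at 21.7% to 23.2%, say little, since 6 of 21 other clusters were higher and EC-2 stood at 58.0%. No list had a member at 0 in cluster 8 in all mice among those counted. By level, defining genes of the other cell types ran from near 0 to values above those of *Flt1*. The means were 0.491 for *Cd74* (macrophages 15.7), 0.247 for the water channel gene *Aqp2*, 0.348 for *Slc26a4*, pendrin, and 0.702 for *Csmd1* (MC 15.1), but 4.09 for *Ebf1* (MC 12.3), 4.42 for *Slc12a3* (DCT 167), 10.00 for *Magi2* (podocytes 617) and 13.1 for the sodium-calcium exchanger gene *Slc8a1* (DCT 186). *Ebf1* was at 33.1% of its level in MC, and the next member of its list, *Pde3a*, at 19.7%. *Ebf1* was also among the 10 genes furthest below EC-2 in cluster 8, so it does not mark MC alone.

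**Figure D2:**
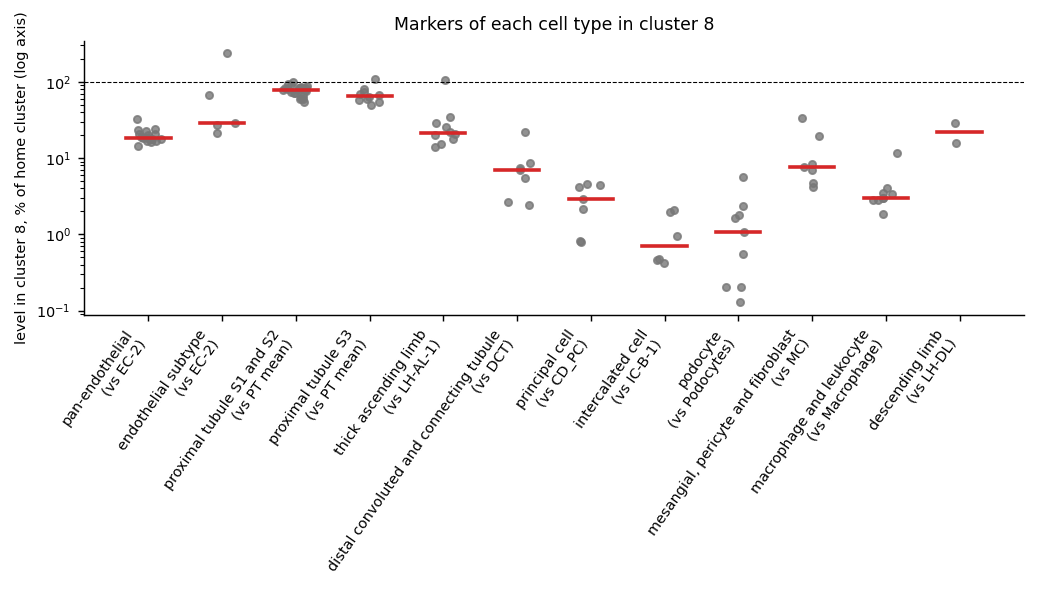
Level of each list member in cluster 8 as a percent of its level in its home cluster (y axis, log scale, mean of 4 mice) for 12 cell type lists (x axis, home cluster in brackets); points are genes, red bars the medians over genes and the dashed line 100%. Proximal tubule S1 and S2 genes lie at 53.7% to 98.9%, pan-endothelial genes at 14.3% to 32.8%, and podocyte genes at 0.128% to 5.61%.

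The thick ascending limb transcripts were not raised evenly. *Umod*, uromodulin, whose transcript is very abundant in the ascending limb, was 9.11, 9.29, 9.01 and 10.2 in cluster 8 and 10.2, 9.23, 9.49 and 9.57 in EC-2, so the clusters overlapped. The ratio of *Slc12a1* to *Umod*, taken after the values were seen, was 3.28, 3.23, 4.23 and 2.70 in cluster 8. In LH-AL-1 it was 5.22, 5.62, 6.60 and 5.04, and in LH-AL-2 it was 3.82 to 4.32. In the 19 clusters outside the ascending limb and cluster 8 the mean ratio was between 0.279 and 0.958, with a median of 0.465, and in EC-2 it was 0.351 to 0.556. In LH-AL-3 it was 8.15 to 35.9. The lowest mouse of cluster 8 was above the highest single value of those 19 clusters (1.38, in IC-B-2), and in each mouse cluster 8 was below LH-AL-1 and LH-AL-2. No step that removes doublets is described for the RNA data, and the part of doublets or of free RNA in the mixed profile was not tested.

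Cluster 8 had almost no gene of its own. It was the highest of 23 clusters in all 4 mice for 1 gene, *Stmn2*, a stathmin known from neurons, at 0.13, 0.06, 0.13 and 0.17, values under the minimum of 0.5. With that minimum the number was 0. For the other 22 clusters the number without the minimum ran from 0 in DCT_CNT to 234 in podocytes, with a median of 48, and it was 218 in EC-2. Across 19609 genes, the profile of cluster 8 had its highest Pearson's r, as the mean of the 4 mice, with DCT_CNT (0.956), PT-S1-S2-2 (0.950), PT-S3-1 (0.946) and PT-S1-S2-1 (0.945). EC-2 came at rank 11 with 0.866. Genes are not independent replicates, these r are dominated by abundant genes, and all clusters of a mouse share its library.

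Against the unweighted mean of the other 22 clusters, 46 of 3934 tested genes (1.17%) were higher in cluster 8 in all 4 mice and 81 (2.06%) were lower. The 10 largest differences upward were 8 genes whose level in EC-2 was higher still and 2 of the proximal tubule. *Heg1*, a receptor of endothelial junctions, was higher by 0.88 to 1.39, *Flt1* by 0.80 to 0.87, *Meis2* by 0.79 to 1.01, the LIM cofactor gene *Ldb2* by 0.76 to 1.22, and *Ptprb*, the vascular endothelial phosphatase, by 0.75 to 1.26. *Plpp1*, *Ebf1* and *Adgrl4* followed at smallest differences of 0.70, 0.67 and 0.67. The proximal tubule genes were *Dab2*, the adaptor for megalin, higher by 0.73 to 1.05, and *Hnf4aos*, a transcript antisense to *Hnf4a*, by 0.71 to 0.74. Handling of strand in the counting is not given in the sources used here. Of the pan-endothelial list 12 of 36 members passed the minimum and 5 were higher, with medians of 0.50 to 0.80, and of the 26 proximal tubule S1 and S2 members that passed 5 were higher, with medians of 0.28 to 0.57. Over all tested genes the medians lay between -0.01 and 0.02. All 12 and all 26 were at 0.5 or above in cluster 8 in all 4 mice, and any below 0.5 in the mean of the others could only be higher. The counts and medians thus describe members selected for their level in cluster 8. With no minimum, the median averaged over mice was 0.20 against 0.62 for the pan-endothelial list. For the S1 and S2 list it was 0.42 against 0.44.

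The genes that were lower than this mean were led by markers of rare clusters, such as *Slc26a4*, pendrin of intercalated cells (smallest difference -2.54), *Lsamp* (-2.37) and *Tmem117* (-2.25). Lower were 6 of 7 tested intercalated cell members, 6 of 8 podocyte members, 5 of 7 distal convoluted and connecting tubule members and 3 of 3 principal cell members. At 0.5 or above in cluster 8 in all 4 mice were 2 of the podocyte and 5 of the distal members. Of these, 1 and 4 were lower. Of the intercalated and principal cell members, 0 reached this level. Members that passed through the other clusters could only be lower. These counts depended on the reference, since against the median of the other 22 clusters 3 genes in all were lower and 269 higher, and the 10 genes with the largest falls turned to values above 0. The distal convoluted and connecting tubule medians, at -1.12 to -0.64, turned to 0.25. *Magi2*, for example, differed by -2.01 to -1.48 from the mean of the other clusters and by 0.53 from their median.

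Against EC-2, in which each mouse served as its own reference, 388 of 4118 tested genes (9.42%) were higher in cluster 8 and 350 (8.5%) were lower. Of the pan-endothelial list 24 of 36 members passed the minimum, 22 were lower and 0 higher. Of these 24, 12 were at 0.5 or above in cluster 8 itself in all 4 mice, and all 12 were lower; of the other 12, which passed through EC-2 and could only be lower, 10 were. The medians of the 4 mice were nearly the same at -1.53 to -1.49. The median over all tested genes lay between -0.01 and 0.02. The exceptions were *Cdh5* (-0.95 to -0.47) and *Ramp2*, a subunit of the adrenomedullin receptor (-0.86 to -0.49), each just under the threshold in 1 mouse. Among the largest differences downward were those of *Emcn* (-2.59 to -2.31), *Plpp1* (-2.42 to -2.27), *Meis2* (-2.41 to -2.26) and *Flt1* (-2.33 to -2.26). *Tek*, the angiopoietin receptor, was 1.503, 2.15, 1.80 and 3.02 in cluster 8 against 11.02, 13.98, 12.1 and 14.5, a difference of -2.26 to -1.95.

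Genes of vessel signaling and of endothelial subtypes were read next. Of the VEGF, angiopoietin and Notch list 8 of 19 members passed and 5 were lower. They were the VEGF coreceptors *Nrp1* (-1.78 to -1.46) and *Nrp2* (-1.92 to -1.55), the receptor *Notch1*, the hypoxia factor *Epas1* and *Esm1*, a proteoglycan of tip cells. Of the 8, 6 reached the minimum in cluster 8 itself in all mice, and 3 of these were lower. The other 2 passed through EC-2 and could only be lower, and 2 were. *Vegfa*, the ligand, which tubule cells and podocytes make, had a mean of 2.28 in cluster 8, 1.38 in EC-2 and 2.71 in the proximal tubule, and was not called in either comparison. Of the endothelial subtype list 12 of 23 members passed and 6 were lower. They were *Ehd3* of glomerular capillaries, *Efnb2* of arteries, *Ephb4* of veins, *Flt4* of lymphatic and fenestrated endothelium, *Igfbp5* and *Npr3*. Of the 12, 4 reached the minimum in cluster 8 itself in all mice, and 1 of these was lower. The other 8 passed through EC-2 and could only be lower, and 5 were. The count therefore cannot show whether markers of several vessels were lower as a set. None of the 19 subtype members in the table was called higher in cluster 8 than in EC-2, and *Mapt*, with a mean of 3.83, came nearest at 0.43 to 1.12 and was 4.86 in the proximal tubule. The glomerular markers *Nostrin* and *Plat* had means of 0.20 and 0.23, against 0.92 and 0.95 in EC-2. Of the endothelial activation list 1 of 19 members passed and 0 were called.

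Among the genes with the largest differences upward from EC-2, *Ank3*, an ankyrin of epithelial membranes, was higher by 2.35 to 2.73, *Slc12a1* by 2.18 to 2.87, the neuregulin receptor gene *Erbb4* by 2.15 to 2.90, the orphan receptor gene *Esrrg* by 2.12 to 2.47, and *Pkhd1*, fibrocystin of tubule cilia, by 2.04 to 2.41. *Ghr*, the growth hormone receptor, was 53.9, 60.4, 44.7 and 54.3 in cluster 8 and 12.5, 13.7, 9.21 and 12.7 in EC-2, with no overlap. Of the proximal tubule S1 and S2 list 26 of 28 members passed, 12 were higher and 0 lower, with medians of 0.50 to 0.80, and of the S3 list 12 passed and 6 were higher (medians 0.68 to 0.84). Of the thick ascending limb list 10 of 12 passed, 7 were higher and 0 lower, with medians of 0.92 to 1.18.

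Among the proximal tubule members, transporters and receptors with large differences stood beside genes that were not called. *Slc5a12* was higher than in EC-2 by 1.35 to 1.72, *Lrp2*, megalin, by 1.05 to 1.42, *Cubn*, its partner cubilin, by 0.99 to 1.48, *Slc4a4*, the basolateral bicarbonate exporter, by 1.07 to 1.49, and *Slc34a1*, the phosphate transporter, by 0.85 to 1.14. In contrast *Miox*, the inositol oxygenase, had means of 5.25 in cluster 8, 5.12 in EC-2 and 5.88 in the proximal tubule, *Ass1*, an enzyme of arginine synthesis, 3.74, 3.36 and 4.19, and *Slc22a6*, the organic anion transporter, 1.77, 2.38 and 1.80. For these 3 genes the mean of EC-2 was not far below, or was above, that of the proximal tubule itself.

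Mitochondrially encoded genes, which are read in nuclei largely from adhering cytoplasm, and nuclear genes for ribosomal and mitochondrial proteins were not called in number. The 13 mitochondrially encoded genes took 2.01%, 1.91%, 2.41% and 1.45% of the total in cluster 8, against 3.80%, 2.15%, 4.42% and 2.30% in EC-2 and 1.61%, 1.11%, 2.26% and 1.01% in the proximal tubule mean, and cluster 8 lay between them in each mouse. The medians of the 11 that passed were -0.80 to -0.15 against EC-2, with 0 called. Of cytosolic ribosomal protein genes 38 of 79 passed and 2 were lower (medians -0.56 to -0.38), and of nuclear genes of oxidative phosphorylation 50 of 74 passed and 1 was lower (medians -0.47 to -0.15).

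Against the mean of the 5 proximal tubule clusters, 173 of 3747 tested genes (4.62%) were higher in cluster 8 and 8 (0.214%) were lower. The 10 largest differences upward were those of *Slc12a1* (3.48 to 3.87), *Erbb4* (3.198 to 3.46), *Egf* (2.86 to 3.25), *Meis2* (2.86 to 2.94) and *Mecom* (2.81 to 3.27), then *Ldb2*, *Ebf1*, *Flt1*, *Ptprm* and *Plpp1* with smallest differences of 2.21 to 1.89. *Egf*, the epidermal growth factor made in the distal nephron, was 22.1, 17.01, 15.9 and 17.2 in cluster 8, 6.63, 3.06, 3.23 and 3.98 in EC-2 and 1.29 to 1.43 in the proximal tubule. *Erbb4* was 14.7, 14.4, 14.7 and 14.3 in cluster 8, at most 2.46 in EC-2 and at most 0.671 in the proximal tubule. Both genes, like *Slc12a1*, were thus higher in cluster 8 than in EC-2 and than in the proximal tubule, with no overlap.

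By list, 12 of 36 pan-endothelial members passed against the proximal tubule and 11 were higher, with medians of 1.13 to 1.57, where the tested genes had medians of -0.02 to 0.01. The exception was *Plvap* (0.44 to 0.82), a component of endothelial fenestrae, and the other 24 members, *Cdh5* and *Kdr* among them, were below the minimum in at least 1 mouse. All 12 that passed were at 0.5 or above in cluster 8 in all 4 mice. Those below 0.5 in the proximal tubule, such as *Flt1*, passed through cluster 8 and could only be higher. The count and its medians thus describe members selected for their level in cluster 8. Of the thick ascending limb list 10 passed and 9 were higher (medians 0.81 to 1.17). *Cldn10*, a claudin that the proximal tubule also makes, was the exception at -0.44 to -0.15. All 10 were at 0.5 or above in cluster 8 in all 4 mice, so the limit given for the pan-endothelial members holds here too. Of 26 proximal tubule S1 and S2 members 2 were lower, *Ghr* (-1.02 to -0.51) and *Gramd1b* (-1.07 to -0.59), and of 12 S3 members 2, *Rnf24* (-1.05 to -0.63) and *Cyp7b1* (-1.12 to -0.52). The medians of -0.35 to -0.22 for S1 and S2 and of -0.61 to -0.38 for S3 were below 0 in all 4 mice. Against the 2 S1-S2 clusters alone 69 genes were lower, and *Ghr*, *Gramd1b*, *Rnf24* and *Cyp7b1* turned to higher in cluster 8, by 0.57, 0.36, 1.44 and 2.00 in the mean of the mice.

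**Figure D3:**
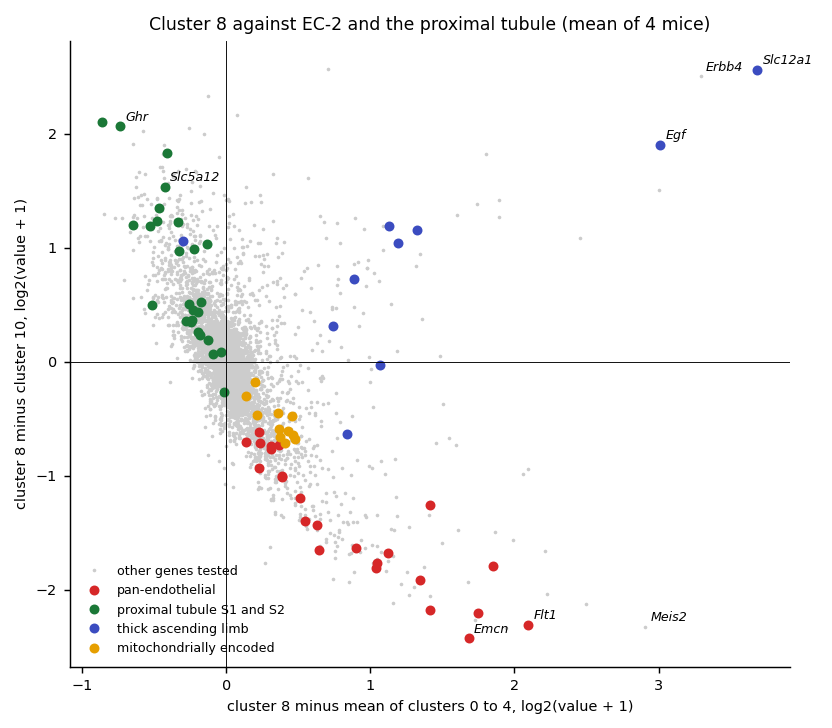
Mean difference over 4 mice of cluster 8 from the proximal tubule clusters (x axis) and from EC-2 (y axis), both in log2(value + 1), with 1 point per tested gene and 4 lists coloured. Pan-endothelial genes lie at the lower right (below EC-2, above the proximal tubule), proximal tubule S1 and S2 genes mostly at the upper left, and *Slc12a1*, *Egf* and *Erbb4* at the upper right, above both references.

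Genes were then chosen for a gap between both references, and the place of cluster 8 in that gap was read. Of 245 genes that were at least 1 higher on the log2 scale in EC-2 than in the proximal tubule in all 4 mice, 241 (98.4%) lay between the references in cluster 8 in every mouse. On the linear scale the median gene stood 18.01%, 20.2%, 19.8% and 22.3% of the way from the proximal tubule to EC-2. Of 201 genes that were at least 1 higher in the proximal tubule, 179 (89.1%) lay between, at a median of 32.8%, 36.9%, 33.2% and 39.2% of the way. The same share was read in the 16 other clusters outside clusters 0 to 4 and EC-2, InjuredPT-A and InjuredPT-B among them. For the 245 genes it ran from 13.5% in InjuredPT-B to 77.1% in MC, with a median of 38.4%. For the 201 genes it ran from 9.95% to 81.6%, the latter in DCT_CNT, with a median of 23.9%. On the linear scale both medians of cluster 8 were nearer to the proximal tubule than to EC-2 in each of the 4 mice, the first more so. The place on the log2 scale, on which the genes were chosen, was not read. *Slc12a1*, *Egf* and *Erbb4*, as given above, lay above both references.

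AAI was compared with no treatment within each genotype, and these contrasts share no mouse. In cluster 8, 29 of 4210 tested genes (0.689%) rose in both genotypes and 41 (0.974%) fell. In control mice alone 80 rose (1.76%) and 82 fell (1.81%), and in h*KLF6*OE mice alone 129 rose (2.85%) and 111 fell (2.45%). In the same mice 47 genes rose (1.06%) and 49 fell (1.1%) in EC-2, and 59 rose (1.52%) and 44 fell (1.13%) in the proximal tubule mean.

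The rises included targets of p53, the transcription factor that responds to DNA damage. *Mdm2*, the ubiquitin ligase that limits p53 (chromosome 10, 117688875 to 117710758, minus strand), was 0.838 in control and 3.02 in control with AAI, and 0.771 in h*KLF6*OE and 2.98 in h*KLF6*OE with AAI. Both AAI-treated mice were above both untreated mice, and the differences were 1.13 and 1.17 (control first, h*KLF6*OE second, as in the pairs that follow). They were 0.84 and 1.29 in EC-2 and 1.48 and 1.67 in the proximal tubule. *Trp53inp1* rose by 1.23 and 0.81, *Ccng1*, cyclin G1, by 0.89 and 0.92, *Gdf15*, a secreted stress hormone, by 0.86 and 0.82, *Btg2*, an antiproliferative gene, by 0.76 and 0.85, and *Polk*, a polymerase that copies damaged DNA, by 0.60 and 0.53. These 6 were the called members of 11 that passed out of 34, with medians of 0.60 and 0.81, against 0.02 and 0.04 for all tested genes. In EC-2 5 of 15 members rose, with medians of 0.46 and 0.55, and in the proximal tubule 7 of 12, with medians of 0.68 and 0.77. A member that reached 0.5 only with AAI could be called only as a rise, so these counts and medians lean upward. The comparison of genotypes needs 0.5 in an untreated mouse. There 3 of the 34 p53 members passed in cluster 8, 7 in EC-2 and 4 in the proximal tubule. *Cdkn1a*, p21, was 0.02, 0.50, 0.03 and 0.56 in cluster 8, and did not pass the minimum in the control contrast.

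Among other genes with large rises were *Gria3*, a glutamate receptor subunit (1.05 and 1.88), the immediate early gene *Egr1* (1.01 and 1.34), the ErbB ligand gene *Nrg1* (0.97 and 0.91), *Exoc4* of the exocyst (0.78 and 1.38) and the chromatin remodeler gene *Chd9* (2.31 and 0.76). *Gria3* was 1.27, 3.70, 0.550 and 4.70 in cluster 8. In EC-2 its differences were 0.15 and 0.82, and those of *Nrg1* 0.45 and -0.06, while in the proximal tubule they were 1.38 and 2.08 for *Gria3* and 1.25 and 1.28 for *Nrg1*. *Egr1* gave 0.64 and 1.19 in EC-2 and 1.13 and 1.33 in the proximal tubule, *Exoc4* 0.24 and 0.97 against 1.19 and 1.63, and *Chd9* 1.80 and 0.73 against 2.21 and 0.66. Of the 20 genes with the largest rises or falls, 12 had differences nearer to those of the proximal tubule than to those of EC-2 in both genotypes, 1, *Mdm2*, was nearer to EC-2 in both, and 7 were mixed. These 20 were chosen for their change in cluster 8, and the share over all tested genes was not read. The count therefore describes these genes only. *Cxcl1*, a neutrophil chemokine, was 0.09, 0.76, 0.07 and 0.98 and was the called member of 2 that passed in the endothelial activation list of 19 (0.69 and 0.89). In the proximal tubule it was the 1 member of that list that passed, and it rose by 1.02 and 1.19, while in EC-2 it gave 0.43 and 0.58 and 0 of 4 members that passed were called.

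The largest falls were of the unnamed transcript *Gm42397* (-2.49 and -2.71), of *Lpl*, lipoprotein lipase (-1.23 and -1.29), of *Cntnap5a* (-1.45 and -1.21), of *Ndrg1*, a gene induced by hypoxia (-1.01 and -1.19), and of *Park2*, the ubiquitin ligase parkin (-0.99 and -0.97). *Ndrg1* was 24, 11.38, 21.6 and 8.88 in cluster 8, so that both treated mice were below both untreated mice. *Gm42397* was 8.41, 0.673, 7.47 and 0.295 in cluster 8, 1.52, 0.0171, 1.27 and 0.122 in EC-2 and 11.6, 2.02, 10.1 and 1.03 in the proximal tubule mean. For *Cntnap5a* the differences in EC-2 were -0.42 and -0.15 and in the proximal tubule -1.39 and -1.19. *Mylk*, myosin light chain kinase, fell by 0.89 and 1.06 in cluster 8, where EC-2 gave -0.23 and 0.15 and the proximal tubule -0.86 and -0.83.

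**Figure D4:**
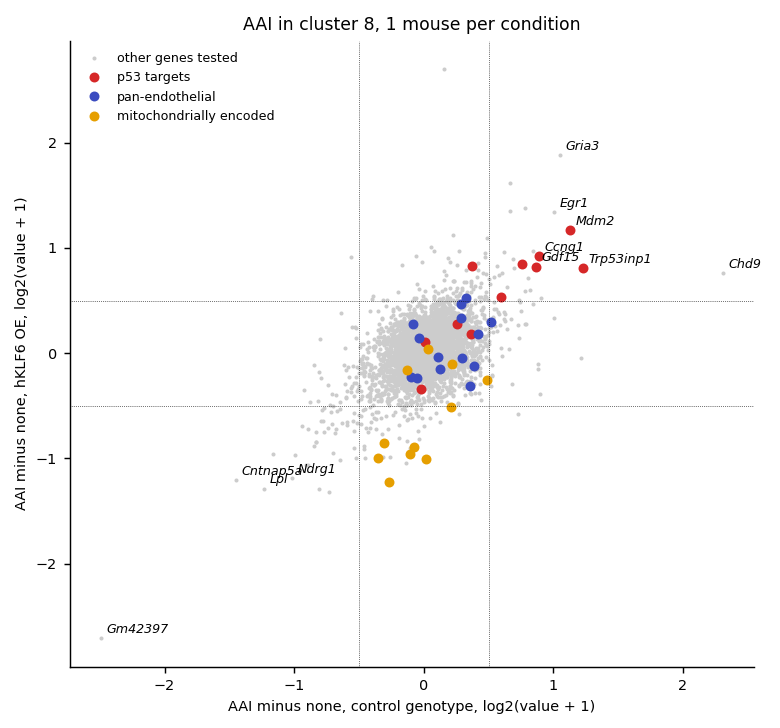
Difference between AAI and no treatment in cluster 8, in log2(value + 1), in control mice (x axis) and in h*KLF6*OE mice (y axis), 1 mouse per condition, with 1 point per tested gene, 3 lists coloured and the threshold of 0.5 dotted. Most p53 targets lie at the upper right, pan-endothelial genes near 0, and mitochondrially encoded genes at -0.08 (median) in control and -0.85 in h*KLF6*OE.

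Of the pan-endothelial list 14 of 36 passed, 0 rose and 0 fell, with medians of 0.29 and 0.05. *Flt1* differed by 0.11 and -0.04 and *Meis2* by 0.05 and 0.22. Of the endothelial subtype list 5 passed (medians 0.04 and -0.24) and of the VEGF, angiopoietin and Notch list 7 passed (0.20 and 0.21), with 0 called. Where 0.689% and 0.974% of all tested genes were called, counts of 0 among 14, 5 and 7 members are near the background and say nothing particular to these lists. *Slc5a12* differed by 0.79 and 0.28 and *Slc12a1* by 0.01 and -0.45, and neither was called.

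Of the proximal tubule S1 and S2 list 27 of 28 members passed, 3 rose and 2 fell. The rises were those of *Slc13a1*, the sulfate transporter (0.85 and 0.97), *Slc2a2*, the glucose transporter GLUT2 (0.78 and 0.59), and *Gramd1b*, a sterol transfer gene (0.66 and 1.35), and the falls those of *Miox* (-0.73 and -1.32) and *Ass1* (-0.54 and -0.74). In the proximal tubule itself the differences of *Slc13a1* were 0.85 and 1.40 and those of *Miox* -1.04 and -1.54. Of the S3 list 12 passed and *Acsm3*, a fatty acid enzyme gene, fell (-0.65 and -0.53). The thick ascending limb list had 10 that passed and 0 called, with medians of -0.00 and -0.01.

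Lists with few members above the minimum can be read only by their values. Of AP-1 and immediate early genes 3 of 13 passed and *Egr1* rose, with medians of 0.47 and 0.91. Of tubular injury genes 2 of 16 passed and 0 were called, with *Spp1*, osteopontin, at 0.75 and 0.40. Of Krüppel-like factors 7 of 11 passed and 0 were called (medians 0.14 and 0.19). Mouse *Klf6* (chromosome 13, 5861482 to 5870394) was 0.335, 0.864, 0.154 and 0.732 in cluster 8, higher in both treated mice, and its differences of 0.48 and 0.59 straddled the threshold. *Polr2a*, the largest subunit of RNA polymerase II, was 1.57, 2.55, 1.37 and 2.05, with differences of 0.47 and 0.37.

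The mitochondrially encoded genes gave unequal medians in the genotypes, a difference that was not tested. In cluster 8 the medians of the 11 that passed were -0.08 and -0.85, in EC-2 -0.70 and -1.04 and in the proximal tubule -0.39 and -1.06, and 0 of 11, 7 of 11 and 4 of 11 fell in both genotypes. Cytosolic ribosomal protein genes had medians of 0.23 and -0.12 in cluster 8 and nuclear genes of oxidative phosphorylation 0.11 and -0.13, with 0 of 28 and 0 of 47 called. The part of these shifts in the other differences of h*KLF6*OE with AAI was not tested.

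Genotype was compared without and with AAI, in 2 contrasts that share no mouse. Only the mouse gene has a row, and the human transgene could not be read from these values. Mouse *Klf6* differed by -0.21 without and by -0.11 with AAI and did not reach the minimum of 0.5 without AAI. Of 4054 tested genes 3 (0.074%) rose in both contrasts in cluster 8 and 6 (0.148%) fell. Without AAI alone 26 rose (0.589%) and 41 fell (0.928%), and with AAI alone 31 rose (0.69%) and 55 fell (1.22%). In EC-2 7 rose (0.162%) and 9 fell (0.208%) in both contrasts, and in the proximal tubule mean 2 rose (0.0542%) and 4 fell (0.108%).

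*Pck1*, the gluconeogenic enzyme of the proximal tubule (chromosome 2, 173153048 to 173159273), was 3.51 in control and 7.97 in h*KLF6*OE, and 4.08 and 7.75 with AAI. Its differences were 0.99 without and 0.78 with AAI, the order in which the pairs below are given. In EC-2 they were 0.99 and 0.76, and in the proximal tubule 1.10 and 0.93. *Pcdh7*, a protocadherin, rose by 0.58 and 0.55, and *Dnajc13*, an endosomal chaperone, by 0.53 and 0.58. In the proximal tubule these genes differed by 0.68 and 0.57 and by 0.53 and 0.49, and *Dnajc13* in EC-2 by -0.19 and 0.39.

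The genes that fell were *Ehhadh*, a peroxisomal fatty acid oxidation enzyme on chromosome 16 (21761287 to 21787807, minus strand), *2810474O19Rik*, *Clec2h*, *Aspa*, *Cyp2d12* and *Fut9*. *Ehhadh* was 6.09 in control and 3.17 in h*KLF6*OE, and 2.99 and 1.33 with AAI, with differences of -0.76 and -0.78. They were -0.88 and -1.05 in the proximal tubule and -0.21 and -0.51 in EC-2. *Clec2h*, a C-type lectin gene, fell by 1.31 and 0.58, *Aspa*, aspartoacylase, by 0.52 and 0.58, and *Fut9*, a fucosyltransferase, by 0.51 and 0.50. *Fut9* was 23.5, 29.9, 16.2 and 20.8, with both h*KLF6*OE mice below both control mice.

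**Figure D5:**
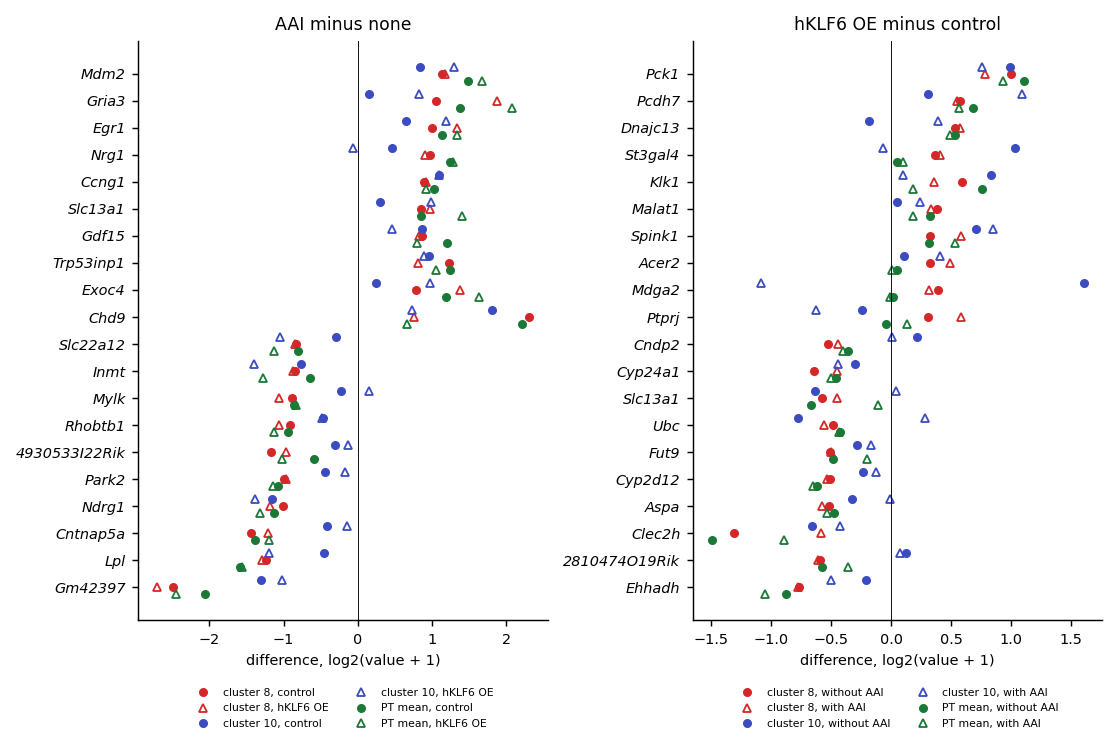
Differences in log2(value + 1) on the x axis for the 10 genes with the largest rise and the 10 with the largest fall in cluster 8 (y axis) with AAI (left) and with h*KLF6*OE (right); red is cluster 8, blue cluster 10 (EC-2), green the proximal tubule mean, and filled and open symbols are the 2 contrasts. *Mdm2*, *Ccng1* and *Pck1* are above 0 in all 3, while *Mylk* and *Cntnap5a* fall in cluster 8 and in the proximal tubule and lie nearer 0 in EC-2; on the right, 3 of the 10 upper and 6 of the 10 lower genes passed the threshold in both contrasts.

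Of all lists, *Pck1* was the one member called between genotypes in cluster 8. The pan-endothelial list had 15 members that passed and medians of 0.12 and 0.14, the VEGF, angiopoietin and Notch list 6 (-0.05 and 0.06), the proximal tubule S1 and S2 list 26 (-0.14 and -0.16), the thick ascending limb list 10 (-0.05 and 0.01) and the p53 list 3 (-0.05 and 0.14). *Flt1* differed by 0.03 and -0.12, *Slc5a12* by 0.07 and -0.45 and *Slc12a1* by 0.34 and -0.11. Mitochondrially encoded genes had medians of 0.25 without and -0.42 with AAI, against 0.25 and -0.01 in EC-2 and 0.47 and -0.06 in the proximal tubule. Cytosolic ribosomal protein genes had medians of 0.24 and -0.14 and nuclear oxidative phosphorylation genes of 0.20 and -0.04 in cluster 8, so these lists did not keep a direction between the contrasts.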

How the data were processed

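Nuclei of kidney cortex from 4 mice were sequenced on the 10x platform and, per the methods, handled as 1 batch. Cell Ranger and a pre-mRNA reference (mm10), which takes in intronic reads, gave the counts; the authors then filtered nuclei by gene number and mitochondrial share and clustered them in Seurat. The signal values as deposited are linear means per cluster and mouse; their unit was read from the values, with a total of 10000 in all 92 columns. Of 19632 rows, 23 with date-like names were dropped, which left 19609. Depth is unknown.

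Cluster names follow the sheet order of the study's marker table. Differences used a pseudocount of 1, a minimum of 0.5 and a threshold of 0.5 in log2; a gene was called when all mice or both contrasts passed in 1 direction. Cluster references are unweighted means. The members and the 21 gene lists were chosen with earlier results of these data known, and several lists are textbook markers on which such clusters are named. The genes named are the markers, list members, and the 10 largest rises and falls by the smallest difference over mice or contrasts; *Erbb4*, *Egf* and other list-free genes entered by that rule, and the *Slc12a1* to *Umod* ratio was added after the values were seen. A gene that this rule would name is not reported here. Coordinates are from GENCODE annotation of GRCm38. No test was made, and calls are descriptions. Alternatives were the pseudocount, minimum, threshold, reference clusters, centring and leaving out a mouse. Python 3.11.15, numpy 2.4.6, pandas 2.3.3 and matplotlib 3.10.9 were used.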

Additional observations from a re-analysis of the deposited data

Results flagged for a closer look

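Among the list members and named genes, 2 had a difference between genotypes of at least 0.5 in size both without and with AAI but of opposite sign, and with 1 mouse per condition this was not tested. *Slc8a1*, the sodium-calcium exchanger of the distal nephron, differed between h*KLF6*OE and control by -1.62 without AAI and by 0.92 with AAI in cluster 8; its values were 11.45 in control, 12.9 in control with AAI, 3.04 in h*KLF6*OE and 25.2 in h*KLF6*OE with AAI. In EC-2 its differences were -1.58 and -0.29. *Chd9* differed by 0.80 without and by -0.75 with AAI, and its values were 2.19, 14.8, 4.56 and 8.40 in cluster 8, 2.67, 11.8, 4.15 and 7.54 in EC-2 and 2.10, 13.3, 4.82 and 8.19 in the proximal tubule mean.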

How the results depend on the processing

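No paired analysis was possible because the labels give 1 mouse per condition, so no replicate numbers pair mice across conditions, and clusters were compared within each mouse without a test. Counts are given as higher and lower genes. Against the other clusters, 46 and 81 became 144 and 175 with a pseudocount of 0.1, 291 and 236 at a threshold of 0.2, 0 and 15 at a threshold of 1, and 269 and 3 against the median of the other 22 clusters, and with a minimum of 2 the lower genes were 35. Against EC-2, 388 and 350 became 616 and 628 with a pseudocount of 0.1, 246 and 184 with a minimum of 2, 753 and 772 at 0.2 and 109 and 112 at 1. Against the proximal tubule, 173 and 8 became 269 and 34 with a pseudocount of 0.1, 329 and 268 at 0.2 and 48 and 0 at 1; with a minimum of 2 the higher genes were 58, and against clusters 1 and 2 alone the lower genes were 69. For AAI, 29 and 41 became 128 and 134 with a pseudocount of 0.1, 313 and 226 at 0.2 and 3 and 4 at 1, and with a minimum of 2 the rises were 17. For genotype, 3 and 6 became 13 and 26 with a pseudocount of 0.1, 47 and 93 at 0.2 and 0 and 0 at 1, and 3 fell after centring. Leaving out a mouse gave 51 to 60 and 86 to 95 against the others, 420 to 438 and 385 to 415 against EC-2, and 180 to 204 and 8 to 22 against the proximal tubule, where 22 came without the control mouse. Fewer mice to satisfy give more calls by construction; the cause of the other changes was not tested.

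Reversed against the median of the other clusters were *Slc26a4* (0.16), *Lsamp* (0.23), *Tmem117* (0.20), *Slc4a9* (0.034), *Bmpr1b* (0.097), *Magi2* (0.53), *Phactr1* (0.44), *Rcan2* (0.13), *Frmpd4* (0.25), *Pde4b* (0.17) and the distal convoluted and connecting tubule median (0.25). Reversed against clusters 1 and 2 alone were *Rnf24* (1.44), *Gramd1b* (0.36), *Cyp7b1* (2.00), *Ghr* (0.57) and *Slc22a30* (0.086). Of 1575 values of lists and named genes under the alternatives, 544 were identical to the main value, since another threshold cannot move a difference and another minimum cannot move that of a single gene. Of the other 1031, 777 moved by less than their spread over mice or contrasts, 238 moved further and 16 reversed. The percent-of-home medians kept within that spread under a home level of 2 and without mitochondrially encoded genes, both chosen after seeing the data.

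Depth and nuclei per column are unknown, so low means such as those of *Klf6* and *Cdkn1a* carry an error that could not be given.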
